A study of Rattus norvegicus with 105 samples.

Results

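The subunit genes of oxidative phosphorylation were described in primary rat hepatocytes exposed for 24 h to nitroalkanes or to reference compounds. Members were the probes whose gene symbol marked a subunit of complex I (Nduf a, b, c, s and v genes), complex II (Sdha to Sdhd), complex III (Uqcr), complex IV (Cox4 to Cox8) or complex V (Atp5). They were 81 probes for 80 symbols among the 22253 probes of the panel: 37 for complex I, 4 for complex II, 7 for complex III, 19 for complex IV and 14 for complex V. The naming rule used no measured value, although these genes were taken up with earlier results of the same data known. A few members are not standard subunits. Atp5s is a synonym of Dmac2l, which is not a subunit of the enzyme, Cox6c-ps1 is named as a pseudogene, and Cox7a2l is a factor that joins complexes III and IV into supercomplexes. Ndufa10l1 is a near copy of Ndufa10, so the split of reads between them is uncertain. Ndufa4, counted here with complex I by its name, is now placed with complex IV.

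Oxidative phosphorylation is carried out in the inner mitochondrial membrane. Complex I takes electrons from NADH and complex II takes them from succinate, and both pass them to ubiquinone. Complex III hands them on to cytochrome c, and complex IV gives them to oxygen. Complexes I, III and IV pump protons, and complex V, the ATP synthase, lets the protons back through its c ring and turns the flow into ATP. Hepatocytes rely on this system for gluconeogenesis, urea synthesis and fatty acid oxidation. The genes measured here are all nuclear, and the subunits encoded by mitochondrial DNA are not matched by the naming rule.

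The cells were primary hepatocytes from a single commercial lot of female Sprague-Dawley rats, grown in collagen-coated 96-well plates. They were profiled with TempO-Seq, an assay in which pairs of detector oligonucleotides are joined on each target RNA, amplified and sequenced. The tested compounds were nitroethane (NE), nitromethane (NM) and 1-nitropropane (1NP), with 8 concentrations of each between 0.003 and 10 mM, and the reference compounds benzo[a]pyrene (BaP, an activator of the aryl hydrocarbon receptor) at 50 µM, rifampin at 20 and 40 µM, CITCO (an activator of human CAR) at 10 and 20 µM, and the PPAR alpha activator WY-14643 (WY) at 50 µM. The controls were DMSO and culture medium. There were 105 libraries in 35 groups of 3: 72 libraries in set 1 (NE, NM, the reference compounds, DMSO and medium) and 33 in set 2 (1NP, WY, DMSO and medium). The sample titles give the nitroalkane concentrations in µM and the protocol gives mM, which was used. The WY libraries of set 2 carry 50 µM in their titles and 100 in their names. Whether DMSO was present in the nitroalkane wells is not stated, so both controls of the same set were used. All comparisons within a set share these control libraries. Concentration was also joined to the plate row in every compound, DMSO and medium included, and their parts cannot be told apart. Each nitroalkane also had plate columns of its own within its set, apart from those of the controls. Compound and plate column therefore cannot be told apart either. Because the wells shared a cell lot, every p-value here reflects variation among wells rather than among rats.

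Total counts ran from 5475419 to 11122665 per library (median 8680678). Levels are given as counts scaled to a library total of 1000000 (CPM) and are compared only within a probe, since probes differ in efficiency. A median of 13792 probes had a count in a library, and 8 libraries exceeded this by more than 500 probes. NE 10 mM replicate 2 stood farthest out with 21627 probes, and the others were NE 0.3 and 1 mM replicate 3, NM 1 and 3 mM replicate 1, NM 10 mM replicate 3, 1NP 0.003 mM replicate 3 and WY replicate 2 of set 1. All 8 had the lowest summed member level of their group. Log2 levels over 7618 probes correlated within groups with a median of 0.983, while NM 10 mM replicate 3 reached 0.857, NM 3 mM replicate 1 reached 0.858 and 1NP 10 mM replicate 3 reached 0.876. For most of the comparisons described, counts of member calls that rest on these libraries are also given without them. All 9 hepatocyte marker probes were detected above 1 CPM on average, and their sum ran from 6485 to 15844 CPM over all libraries. Markers of Kupffer cells, stellate cells, endothelium, lymphocytes and erythroid cells summed to at most 21.8, 12.9, 8.12, 4.93 and 18.8 CPM, each of these highest in NE 10 mM replicate 2.

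Sequences upstream of the genes were available for 70 of the 80 symbols, from RefSeq on the GRCr8 build, as 300 bases running from 250 before to 50 after the annotated start. Both strands were searched for the strings GCGCNTGCG of NRF1, CCGGAAG of ETS factors such as GABP, AAGATGGCG of YY1 and TCAAGGTCA of ERR alpha, factors known from mammalian cells for driving respiratory chain genes. The strings of the ETS factors and of YY1 can share the letters AAG. The NRF1 string was in 18 of the 70 windows (25.7%), against 5.75% of all 33469 windows. The ETS string was likewise in 18 (25.7%), against 8.75%, the YY1 string in 8 (11.4%), against 1.73%, and the ERR alpha string in 2 (2.86%), against 0.433%. Of the 13 members that were higher at 10 mM NE than in medium, 3 held the NRF1 string (Atp5f1c, Ndufa12 and Ndufb10), 3 the ETS string (Ndufa1, Ndufa2 and Ndufa6), 2 the YY1 string (Ndufa2 and Ndufa6) and 0 the ERR alpha string. A match is a run of letters and not a measured site. Shown here are 4 genes that were higher at 10 mM NE and hold a match, and Uqcrc1, which was lower there and higher at 3 mM. Each is written 5′ to 3′ in the direction of transcription, with the matched strings in capitals. The windows are chr7:115750268-115750567 on the minus strand for Ndufa6, chr7:30658066-30658365 on the plus strand for Ndufa12, chr17:73333435-73333734 on the plus strand for Atp5f1c, chr10:14255917-14256216 on the minus strand for Ndufb10 and chr8:118467973-118468272 on the plus strand for Uqcrc1.
Ndufa6: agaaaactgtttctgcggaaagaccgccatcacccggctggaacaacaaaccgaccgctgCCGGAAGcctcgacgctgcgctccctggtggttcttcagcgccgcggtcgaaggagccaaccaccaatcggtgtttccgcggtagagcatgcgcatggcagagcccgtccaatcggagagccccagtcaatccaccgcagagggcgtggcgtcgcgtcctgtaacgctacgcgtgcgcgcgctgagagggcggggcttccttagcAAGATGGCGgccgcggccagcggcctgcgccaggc
Ndufa12: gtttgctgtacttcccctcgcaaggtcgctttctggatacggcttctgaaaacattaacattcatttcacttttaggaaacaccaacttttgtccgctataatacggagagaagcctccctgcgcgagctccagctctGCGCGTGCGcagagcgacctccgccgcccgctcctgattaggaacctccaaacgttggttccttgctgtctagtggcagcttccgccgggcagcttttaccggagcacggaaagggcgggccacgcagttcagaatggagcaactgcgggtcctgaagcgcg
Atp5f1c: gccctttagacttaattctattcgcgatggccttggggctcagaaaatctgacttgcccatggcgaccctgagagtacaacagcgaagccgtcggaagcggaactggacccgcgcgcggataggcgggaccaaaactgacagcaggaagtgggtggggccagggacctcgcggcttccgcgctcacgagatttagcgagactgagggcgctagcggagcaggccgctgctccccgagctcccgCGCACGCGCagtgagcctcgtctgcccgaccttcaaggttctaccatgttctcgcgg
Ndufb10: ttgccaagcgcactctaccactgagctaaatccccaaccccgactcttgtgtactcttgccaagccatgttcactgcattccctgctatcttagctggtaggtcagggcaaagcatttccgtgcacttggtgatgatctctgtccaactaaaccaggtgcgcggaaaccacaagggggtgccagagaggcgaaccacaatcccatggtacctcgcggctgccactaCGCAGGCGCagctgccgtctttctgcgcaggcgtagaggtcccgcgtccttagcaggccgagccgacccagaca
Uqcrc1: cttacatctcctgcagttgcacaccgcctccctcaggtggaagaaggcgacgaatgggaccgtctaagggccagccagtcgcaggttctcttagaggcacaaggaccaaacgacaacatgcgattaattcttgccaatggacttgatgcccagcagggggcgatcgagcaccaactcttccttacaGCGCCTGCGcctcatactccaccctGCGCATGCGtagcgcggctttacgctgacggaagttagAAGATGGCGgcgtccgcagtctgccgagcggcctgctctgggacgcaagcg

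Of the 81 member probes, 72 passed the filter on low counts in at least one fit: 35 for complex I, 4 for complex II, 6 for complex III, 13 for complex IV and 14 for complex V. The 9 that passed in none were the second Ndufs5 probe, Ndufa4l2, Uqcrc2, Cox4i2, Cox6b2, Cox6c-ps1, Cox7b2, Cox8b and Cox8c. For 8 of these 9 the highest library was NE 10 mM replicate 2, where the 9 together had 131 counts, against at most 10 in any other library. A count of 0 still allows 3 counts, or 0.270 to 0.548 CPM depending on the library. Uqcrc2, a core subunit of complex III, had a median of 0 CPM and at most 1.19 CPM, so nothing can be said of it from these counts. The limit of 3 counts covers counting error only.

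Together the members took 11144 to 18305 CPM of a library (median 15082), that is 1.11% to 1.83% of its counts. Complex IV supplied 36.7% of these counts in the median library, complex V 29.1%, complex I 22.3%, complex II 8.71% and complex III 3.25%. These shares depend on which probes work well and are not amounts of the complexes. The best measured member of complex I was Ndufs4, an accessory subunit of the NADH-oxidising module, with a lowest, median and highest library of 396, 466 and 887 CPM. Sdhb, the iron-sulfur subunit of complex II, spanned 527, 839 and 1585 CPM, and Uqcrfs1, the Rieske iron-sulfur protein of complex III, spanned 21.5, 123 and 229.95 CPM. Cox6a1 of complex IV spanned 796, 1367 and 1906 CPM, and Atp5f1d, the delta subunit of the ATP synthase, spanned 794, 1247 and 1481 CPM. In the main fits none of these 5 passed the test at 10 mM of any nitroalkane against either control (edgeR quasi-likelihood test with Benjamini-Hochberg adjustment over all probes). Without the libraries of high detection Atp5f1d was lower at 10 mM NM than in DMSO (log2 change -0.22, adjusted p = 0.0484, edgeR).

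Among isoform genes the widely expressed forms were well measured and most tissue-restricted forms were near 0. Cox4i1, the widely expressed form of subunit IV, had a lowest, median and highest library of 789.9, 980.3 and 1708 CPM, while its lung form Cox4i2 had no count in 96 of the 105 libraries and 3.86 CPM at most. Cox8a, the widely expressed form of subunit VIII, spanned 48.0, 128 and 193 CPM, and its muscle form Cox8b had no count in 103 libraries. The muscle form Cox7a1 had a median of 0.348 CPM and no count in 15 libraries, and Ndufa4l2, a hypoxia-responsive relative of Ndufa4, had no count in 99. Ndufa4 itself spanned 81.7, 132 and 185 CPM, and Cox7a2l spanned 28.9, 50.3 and 94.1 CPM. Cox6a2, the heart and muscle form of subunit VIa, was measured in every library, at 0.603, 4.54 and 13.3 CPM. The highest Cox6a2 group was 3 mM NE and the lowest was DMSO of set 2.

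**Figure D1:**
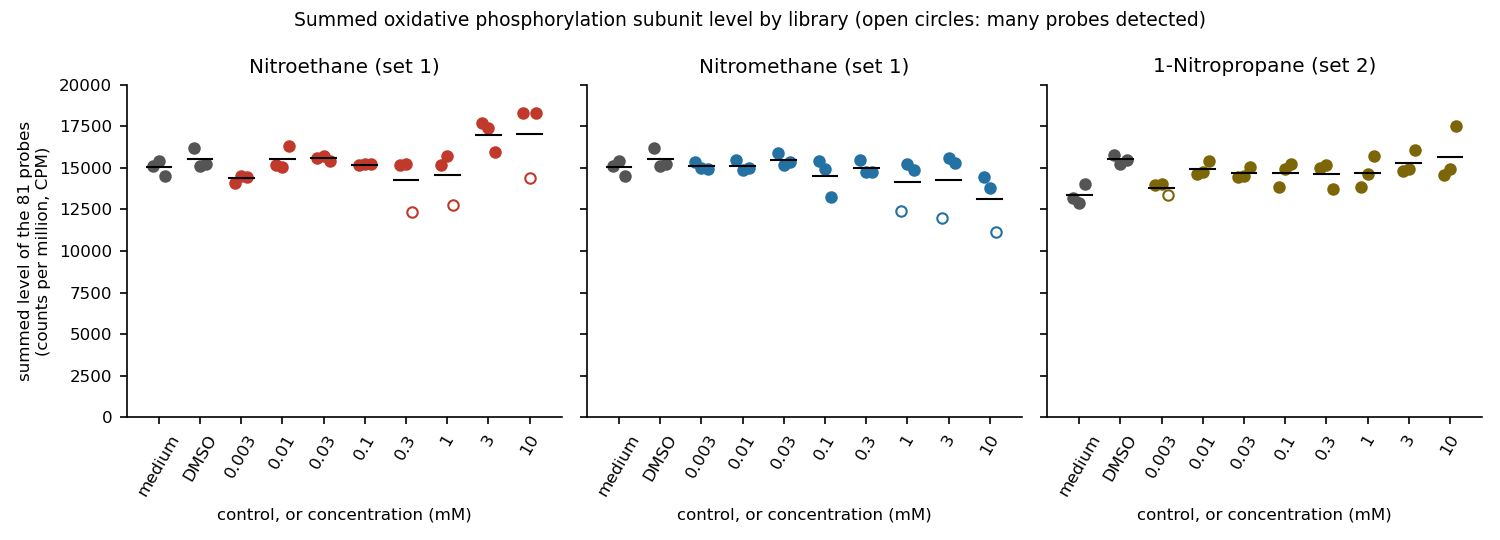
Summed level of the 81 member probes in CPM (vertical axis) for each library, in medium, DMSO and the 8 concentrations in mM (horizontal axis) of NE, NM and 1NP; each point is a library, each bar a group mean, and open circles mark libraries with many more probes detected. NE libraries reached 18305 CPM at 10 mM, NM libraries fell as low as 11144 CPM at 10 mM, and each open circle is the lowest of its group.

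At 10 mM NE the summed member level was 18292, 14406 and 18305 CPM, against 15097, 15419 and 14528 CPM in medium and 16210, 15082 and 15205 CPM in DMSO of set 1. Replicates 1 and 3 lay above every control library, and replicate 2, the library with the most probes detected, lay below all of them. At 3 mM NE the sums were 17657, 17370 and 15948 CPM, above every medium library. In libraries of mixed wells, fewer cells of a type and less RNA per cell cannot be told apart.

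Complex I held most of the calls at 10 mM NE. Against medium, 13 of 72 tested members rose and 3 fell (adjusted p under 0.05, edgeR quasi-likelihood test, Benjamini-Hochberg over all 12364 probes of the fit). Of all tested probes 17.2% rose and 18% fell in that comparison. In this fit the members rose about as often as all probes and fell less often. The frequency of their rises depended on the libraries of high detection, as given below. The members' median log2 change was 0.24, against 0.03 for all probes, and it was 0.12 without NE replicate 3 and 0.40 without NE replicate 2. By complex, 10 of 35 complex I members rose with a median of 0.35, none of the 4 complex II members changed (median 0.14), 1 of 6 complex III members fell (median 0.08), none of the 13 complex IV members changed (median 0.23), and 3 of 14 complex V members rose while 2 fell (median 0.24).

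The largest rise among well measured members was that of Ndufb10, an accessory subunit of the membrane arm of complex I. Ndufb10 measured 192, 148 and 156 CPM at 10 mM NE, against 74.2, 67.5 and 68.3 CPM in medium and 105, 84.1 and 71.9 CPM in DMSO. No library at 10 mM overlapped with either control. The log2 change was 1.25 ± 0.24 against medium (SE, adjusted p = 0.000114) and 0.89 ± 0.23 against DMSO (adjusted p = 0.00426). At 3 mM NE Ndufb10 measured 83.4, 56.2 and 40.7 CPM, a range that includes the medium libraries. Ndufa6, a LYR-motif accessory subunit of the matrix arm, measured 46.3, 38.6 and 29.1 CPM at 10 mM and 38.6, 39.7 and 36.1 CPM at 3 mM, against 15.4, 15.4 and 18.9 CPM in medium and 21.7, 15.2 and 17.6 CPM in DMSO. It was higher in every library at both concentrations, by 1.20 ± 0.28 at 10 mM (adjusted p = 0.00151) and 1.277 ± 0.29 at 3 mM (adjusted p = 0.00255) against medium.

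Other complex I members rose at 10 mM NE against medium without overlap between the groups. Ndufv2, a subunit of the NADH-oxidising tip and one of 6 tested core catalytic subunits, averaged 71.5 ± 17.01 CPM at 10 mM and 32.6 ± 5.49 CPM in medium (SD, n = 3 each), a log2 change of 1.13 ± 0.28 (SE, adjusted p = 0.00218). It was the only core subunit of the 6 to pass in this fit, the others being Ndufv1, Ndufs1, Ndufs3, Ndufs7 and Ndufs8. Without the libraries of high detection Ndufs3 passed as well (log2 change 0.42 ± 0.10, adjusted p = 0.00289). Ndufb3 measured 154, 107 and 133 CPM, against 84.7, 65.9 and 66.4 CPM in medium (log2 change 0.88 ± 0.19, adjusted p = 0.00064). Ndufa1, Ndufa12, Ndufa2, Ndufb5 and Ndufa10 rose by 0.73, 0.67, 0.64, 0.56 and 0.54 on the log2 scale, all of them accessory subunits. Ndufa7 also passed, at levels of 3.04 CPM at 10 mM and 0.502 CPM in medium on average.

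In complex V 3 members rose and 2 fell at 10 mM NE against medium. Atp5mc1, which encodes a c-ring subunit, measured 23.9, 24.8 and 25.9 CPM at 10 mM NE and 20.3, 18.2 and 16.6 CPM at 3 mM, against 12.1, 12.8 and 8.43 CPM in medium and 9.71, 9.10 and 13.3 CPM in DMSO. Both concentrations lay above every control library, with log2 changes against medium of 1.16 ± 0.25 (adjusted p = 0.000484) and 0.81 ± 0.25 (adjusted p = 0.0307). Atp5f1c, the gamma subunit of the rotor, measured 764, 560.0 and 607 CPM at 10 mM, against 353, 317 and 341 CPM in medium and 436, 386 and 319 CPM in DMSO, a log2 change of 0.95 ± 0.20 against medium. Atp5f1b, the catalytic beta subunit, measured 1500.1, 1398 and 1497 CPM, against 927, 1023 and 945 CPM in medium (log2 change 0.61 ± 0.19, adjusted p = 0.0158). Atp5if1, the inhibitor that blocks ATP hydrolysis by complex V, measured 33.7, 37.1 and 51.2 CPM at 10 mM, against 67.6, 56.1 and 67.5 CPM in medium and 44.3, 50.8 and 61.8 CPM in DMSO. It fell by 0.64 ± 0.19 on the log2 scale against medium (adjusted p = 0.00877) and overlapped with DMSO. Atp5mf, a membrane subunit, measured 51.1, 32.9 and 58.8 CPM, against 82.6, 78.3 and 76.1 CPM in medium, and fell by 0.70 ± 0.27 on the log2 scale (adjusted p = 0.0442).

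Uqcrc1, a core subunit of complex III, went opposite ways at the upper concentrations of NE. It measured 137, 170.4 and 202 CPM at 3 mM and 87.2, 80.96 and 99.7 CPM at 10 mM, against 112, 123 and 120.0 CPM in medium and 111, 106 and 109 CPM in DMSO. All libraries at 3 mM lay above, and all at 10 mM below, those of both controls. The log2 change against medium was 0.60 ± 0.16 at 3 mM (adjusted p = 0.00967) and -0.40 ± 0.16 at 10 mM (adjusted p = 0.0488). The call at 10 mM held in only 3 of 12 settings tried.

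The count at 10 mM NE depended on single libraries. Without replicate 2, 21 members rose and 0 fell, and without replicate 1 the calls numbered 7. Without the libraries of high detection 30 members rose and 2 fell, where 17.3% of all probes rose and 19% fell. Ndufb10, Ndufa6, Atp5mc1, Ndufv2, Atp5f1c and Ndufb3 kept their call in all 12 settings.

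**Figure D2:**
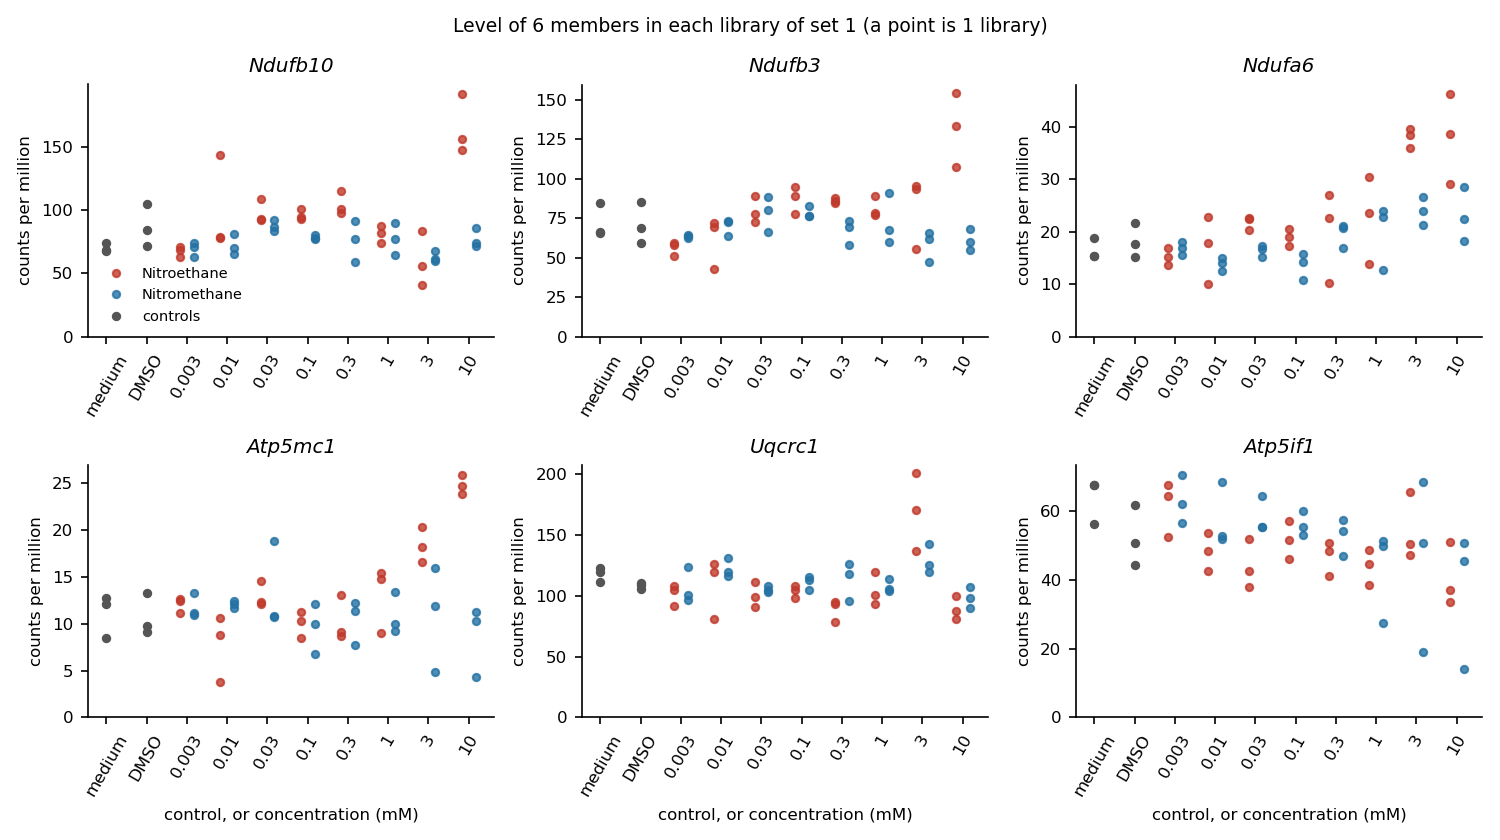
Level in CPM (vertical axis, each panel with its own scale) of 6 members by concentration in mM (horizontal axis) of NE and NM, with medium and DMSO of set 1 at the low end. Each point is a library. Ndufb10, Ndufb3, Ndufa6 and Atp5mc1 lie highest at the upper NE concentrations, Uqcrc1 peaks at 3 mM NE, and Atp5if1 is below medium at 10 mM NE.

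Against DMSO the same libraries gave fewer calls. Of 72 members 7 rose and 2 fell at 10 mM NE, where 14.6% of all probes rose and 15.8% fell, and the members' median log2 change was 0.17. The risers were Atp5mc1 (log2 change 1.17), Ndufa6 (1.02), Ndufv2 (0.92), Ndufb10 (0.89), Ndufb3 (0.86), Atp5f1c (0.73) and, at 3.64 CPM against 1.19 CPM in DMSO, the membrane anchor gene Sdhd (1.53). Atp5mf (-0.72) and Uqcrh (-0.45), the hinge protein gene of complex III, fell. Without the libraries of high detection 23 rose and 2 fell, and the calls numbered 4 without NE replicate 1, 14 without NE replicate 2 and 5 without DMSO replicate 3.

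At 3 mM NE 8 members rose against medium and 0 fell, with 6.64% of all probes higher and 5.89% lower. The median log2 change of the members was 0.24, against -0.01 for all probes. Besides Ndufa6, Atp5mc1 and Uqcrc1 these were Ndufb9 (347, 401 and 358 CPM, against 196, 227 and 204 CPM in medium), Ndufb8 (log2 change 0.71), Cox7b of complex IV (0.73), Sdhc, a membrane anchor of complex II (0.45), and Cox6a2. Ndufb9 was higher in every library, by 0.90 ± 0.20 on the log2 scale (adjusted p = 0.0026), but at 10 mM NE its libraries ran from 187 to 283 CPM and overlapped with medium. Cox6a2 measured 12.8, 13.3 and 11.01 CPM at 3 mM and 2.23, 3.73 and 4.11 CPM at 10 mM, against 6.49, 6.51 and 2.96 CPM in medium and 2.37, 0.806 and 2.34 CPM in DMSO. All libraries at 3 mM lay above those of both controls, by 1.29 ± 0.33 on the log2 scale against medium (adjusted p = 0.00924). Without medium replicate 1 or 3 there were 4 calls at 3 mM, without NE replicate 2 there were 5, and without the libraries of high detection 17. Against DMSO 6 members rose at 3 mM and 0 fell, where 3.66% of all probes rose and 3.23% fell. The 6 were Cox6a2 (2.77), Ndufa6 (1.10), Atp5mc1 (0.82), Ndufb9 (0.78), Uqcrc1 (0.68) and Ndufb8 (0.66). That count was 2 without DMSO replicate 2 or NE replicate 2, 3 without NE replicate 3, and 10 without the libraries of high detection.

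Below 3 mM no member was called against medium at any of the 6 NE concentrations (edgeR). Calls over all probes were equally rare: 0% at 0.003, 0.03 and 0.1 mM, 0.0566% at 0.01 mM, 0.0243% at 0.3 mM and 0.267% at 1 mM. At an unadjusted p under 0.05 there were 0, 13, 3, 1, 12 and 6 members from the lowest to the highest of these concentrations, and DESeq2 called 2 at 0.01 mM and 0 at the others. The counts depended on the fit: with only the compared groups 13 members were called at 0.03 mM and 7 at 0.1 mM, without replicate 1 or 2 of 0.01 mM there were 8, and with no filter there were 5, 3 and 2 at 0.01, 0.3 and 1 mM. Against DMSO the calls from 0.003 to 1 mM numbered 2, 1, 0, 1, 2 and 1, where 3.25%, 3.38%, 2.73%, 3.66%, 5.9% and 2.86% of all probes were called, and the alternatives gave 0 to 18. Cox6a2 was the member called higher at 0.003, 0.01, 0.1 and 1 mM, at 8.52, 5.59, 5.21 and 8.57 CPM on average, against 1.84 CPM in DMSO, while Uqcrh was lower at 0.003 and 0.3 mM and Atp5mc3 at 0.3 mM. The members' median log2 change against medium ran -0.08, -0.02, 0.09, -0.02, -0.12, -0.05, 0.24 and 0.24 over the 8 concentrations. Over the 24 NE libraries, with no control, 12 members rose with the rank of concentration and 0 fell. Of all probes 13.4% rose and 12.7% fell. The largest slopes among those above 10 CPM were those of Ndufa6 (0.18 ± 0.03 log2 units a step, adjusted p = 0.000317), Atp5mc1 (0.16), Ndufb3 (0.13), Ndufv2 (0.12) and Cox7b (0.11). Without the libraries of high detection 29 members rose with concentration, without replicate 1 of 10 mM there were 7 calls, and without replicate 3 of 3 mM there were 19.

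At 10 mM NM the members' medians were below 0, and 0 members passed the test against medium and 4 against DMSO. The summed member level at 10 mM NM was 14457, 13788 and 11144 CPM, below every medium and DMSO library of set 1. The lowest of the 3 was replicate 3, which also correlated least with its group. Against medium, 0 of 72 members passed at 10 mM by edgeR, where 0.767% of all probes did, 16 had an unadjusted p under 0.05, and DESeq2 called 0. The median log2 change of the members was -0.30, against 0.03 for all probes, and 15 of 72 were positive. Without replicate 3 the median was -0.12. Without the libraries of high detection it was -0.13 and 1 member was called, Ndufa9, which was higher.

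Against DMSO 4 members fell at 10 mM NM, where 3.47% of all probes did, and the members' median log2 change was -0.37 (-0.18 without NM replicate 3). Ndufc1, an accessory subunit of complex I, measured 284, 278 and 251 CPM, against 408, 343 and 391 CPM in DMSO and 341, 358 and 321 CPM in medium. It lay below all 6 control libraries and fell by 0.58 ± 0.12 on the log2 scale against DMSO (adjusted p = 0.00364). Atp5mc3, a further c-ring gene, measured 109.7, 106 and 63.1 CPM, against 148, 144 and 159.7 CPM in DMSO (log2 change -0.78 ± 0.20, adjusted p = 0.0157). Atp5po, the stalk subunit once named OSCP, fell by 0.30 on the log2 scale, and Uqcrh fell by 0.39 with overlapping libraries. Without the libraries of high detection 13 members fell and 1 rose, where 5.15% of all probes fell and 6.06% rose. Without NM replicate 1 there were 8 calls. At 3 mM NM 0 members passed against medium by edgeR or DESeq2, 4 had an unadjusted p under 0.05, and 2.62% of all probes passed. Without NM replicate 1 of 3 mM and the other libraries of high detection 2 rose there, Ndufa6 (0.65) and Atp5f1b (0.30). Of all probes 3.27% rose and 1.12% fell in that fit.

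Over the 24 NM libraries 4 members rose with the rank of concentration and 5 fell, where 7.78% of all probes rose and 2.1% fell. The risers were Sdhd and Ndufs5, both under 10 CPM, Ndufa5 (0.11 log2 units a step) and Ndufa6 (0.10). Ndufa5, a subunit of the matrix arm, measured 41.9, 40.6 and 41.3 CPM at 10 mM NM, against 29.9, 27.1 and 27.8 CPM in medium and 32.1, 29.1 and 19.8 CPM in DMSO. The NM libraries lay above all 6 controls, though the comparison of 10 mM with medium did not pass. Ndufc1 (-0.05), Sdhb (-0.05), Ndufb5 (-0.07), Ndufv1 (-0.10) and Cox6a2 (-0.17) fell. Without the libraries of high detection 7 members rose with NM concentration and 0 fell, and the median slope was -0.01. Leaving out a library changed the count of 9 to between 3, without replicate 3 of 10 mM, and 16, without replicate 3 of 3 mM, and it was 15 without replicate 2 of 3 mM and 4 or 5 without 9 other libraries in turn.

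**Figure D3:**
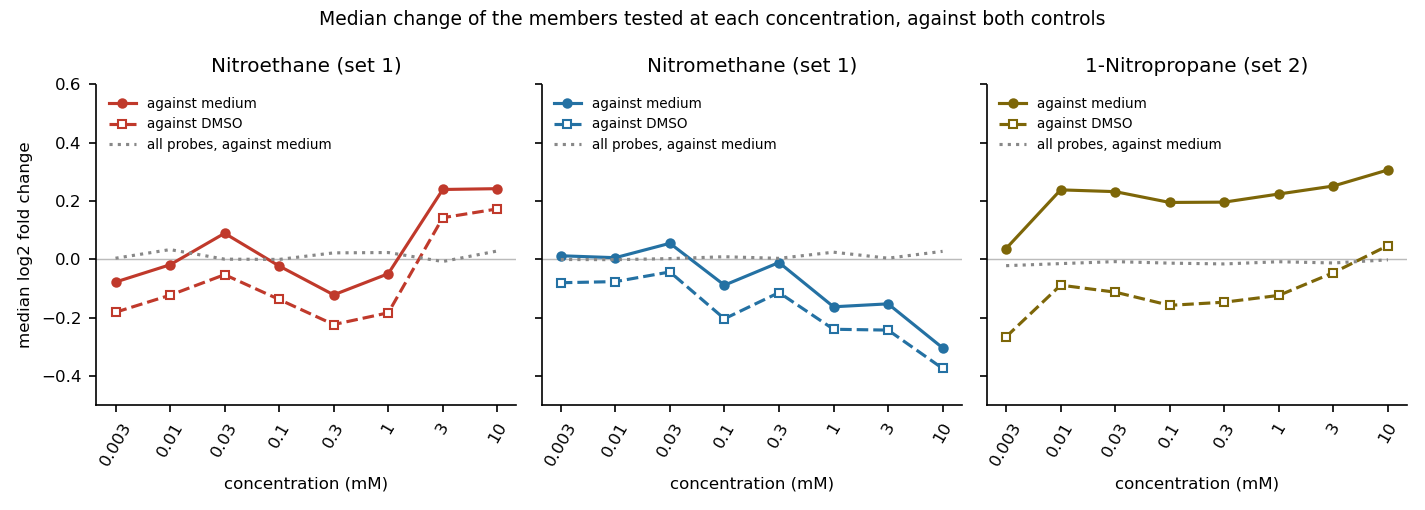
Median log2 change of the members (vertical axis) by concentration in mM (horizontal axis) for NE, NM and 1NP, with a line against medium and a line against DMSO of the same set, and a dotted line for all probes against medium. In every panel the line against DMSO lies below the line against medium, and for 1NP every median is positive against medium and all but that at 10 mM are negative against DMSO, where leaving out a library turned the sign at 10 mM.

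The DMSO and medium libraries differed from each other, and by more in set 2. In set 1 the summed member level was 16210, 15082 and 15205 CPM in DMSO and 15097, 15419 and 14528 CPM in medium. In set 2 it was 15768, 15242 and 15485 CPM in DMSO and 13186, 12869 and 14035 CPM in medium, with no overlap. In set 1, 3 of 71 members rose in DMSO against medium and 0 fell, where 3.88% of all probes rose and 3.19% fell. The 3 were Uqcrh (0.42), Atp5f1a (0.42) and Atp5f1b (0.32), the last 2 being the alpha and beta subunits of the catalytic head. Without DMSO replicate 1 or medium replicate 1 there was 1 call. In set 2, 23 of 70 rose and 2 fell, where 12.4% of all probes rose and 11.6% fell, and the median log2 change was 0.30. The risers were 11 members of complex I, 1 of complex III, 6 of complex IV and 5 of complex V.

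In set 2 Ndufb10 measured 102, 93.8 and 87.1 CPM in DMSO, against 48.3, 44.3 and 44.1 CPM in medium, a log2 change of 1.15 ± 0.13 (SE, adjusted p = 8.23e-06). Atp5f1c measured 478, 459 and 454 CPM in DMSO, against 292, 185 and 296 CPM in medium. Ndufs5, an accessory subunit with a twin-cysteine fold, measured 18.3, 20.8 and 20.8 CPM in DMSO, against 7.34, 3.30 and 8.12 CPM in medium. The groups did not overlap for any of these, nor for Ndufa12, Ndufa1, Ndufv2, Ndufb3, Atp5me and Cox6c, which rose by 0.83 to 1.00 on the log2 scale. Cox6a2 fell, at 1.31, 0.895 and 1.285 CPM in DMSO and 4.74, 7.16 and 2.61 CPM in medium (log2 change -1.94 ± 0.47, adjusted p = 0.00546), and Uqcrq of complex III fell by 0.46 on the log2 scale. Leaving out a control library in turn gave 17 to 37 calls in set 2. The hepatocyte markers differed alongside: their sum was 13860 to 15392 CPM in DMSO of set 2, against 8780 to 11902 CPM in medium, and 14603 to 15844 CPM in DMSO of set 1, against 8636 to 10806 CPM in medium. Their part in the members' difference was not tested.

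The difference between the controls was itself compared between the sets in 1 fit of these 4 groups. Of 71 members, 4 differed and all 4 rose more in set 2, where 0.714% of all probes had a lower change in set 1. Ndufb3 changed by 0.02 in set 1, against a rise of 0.93 in set 2, a difference of -0.92 ± 0.20 (set 1 minus set 2, adjusted p = 0.0377). For Ndufa1 the log2 changes were 0.16 in set 1 and 0.98 in set 2, for Ndufb10 0.35 in set 1 and 1.15 in set 2, and for Atp5pd, a stator stalk subunit of complex V, -0.08 in set 1 and 0.69 in set 2. The count was 0 when any of 9 of the 12 libraries was left out, 10 without medium replicate 4 of set 2 and 24 without medium replicate 6 of set 2.

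1NP gave a result that depended on the control. The summed member level at 10 mM 1NP was 14584, 14894 and 17517 CPM, against 15768, 15242 and 15485 CPM in DMSO of set 2 and 13186, 12869 and 14035 CPM in medium of set 2. Every 1NP library lay above every medium library, while 2 of the 3 lay below every DMSO library. Against medium 19 of 71 members rose and 0 fell, where 7.92% of all probes rose and 5.35% fell. The median log2 change of the members was 0.31, against 0.00 for all probes. The 19 were 10 of complex I, 1 of complex II, 4 of complex IV and 4 of complex V. Against DMSO 1 member rose and 0 fell, where 1.02% of all probes rose and 0.888% fell. The members' median of 0.05 became -0.08 without 1NP replicate 3 and -0.01 without DMSO replicate 5. The 1 riser was Cox6a2, at 4.59, 2.71 and 5.39 CPM, against 1.31, 0.895 and 1.285 CPM in DMSO (log2 change 1.84, adjusted p = 0.00702), and it overlapped with medium at 4.74, 7.16 and 2.61 CPM. This call was lost without DMSO replicate 5.

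Among the members higher at 10 mM 1NP than in medium, Ndufs5 measured 18.9, 26.1 and 23.6 CPM, against 7.34, 3.30 and 8.12 CPM in medium and 18.3, 20.8 and 20.8 CPM in DMSO. It was above every medium library (log2 change 1.94 ± 0.26, adjusted p = 0.000594) and overlapped with DMSO. Ndufa9, a subunit at the joint of the arms of complex I, measured 16.2, 21.0 and 16.1 CPM, against 10.1, 5.11 and 8.12 CPM in medium and 12.4, 10.4 and 14.0 CPM in DMSO. It lay above the libraries of both controls, with a log2 change of 1.26 ± 0.22 against medium (adjusted p = 0.00297), and did not pass against DMSO. Ndufv2 (1.20), Ndufb3 (0.97), Ndufa6 (0.95), Atp5f1c (0.92), Ndufa5 (0.84), Atp5pd (0.73) and Ndufa10 (0.73) also rose against medium without overlap. Lower on the list were Cox6c (0.69), Atp5f1a (0.61), Ndufa2 (0.52), Atp5f1b (0.48), Sdha, the flavoprotein of complex II (0.42), Ndufa4 (0.42) and Ndufs3 (0.38). Cox7b and Cox6b1 rose with overlapping libraries, and Cox5b rose at 3.56 CPM against 1.03 CPM in medium. For the same genes the DMSO libraries of set 2 also stood above medium in many cases. The count against medium dropped to 3 without 1NP replicate 3, the library with the highest sum, or without medium replicate 5, and to 0 when only the 2 groups were fitted.

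At 3 mM 1NP 2 members rose against medium, Ndufs5 (1.58) and Cox6b1 (0.45), where 0.288% of all probes rose. That count was 1 without any 1 of the 1NP libraries, 0 without medium replicate 5, 11 without medium replicate 6 and 4 without the library of high detection, and it was 10 with DESeq2, 9 with no filter and 0 with only the compared groups. At 0.003 mM, the lowest concentration, 2 members rose and 20 fell against DMSO, where 8.6% of all probes rose and 8.88% fell, with a median log2 change of -0.27. The calls numbered 8 without 1NP replicate 1, 14 without DMSO replicate 4 or 5, 12 without DMSO replicate 6 and 36 with only the compared groups. Against medium 0 members passed there by edgeR or DESeq2, 7 had an unadjusted p under 0.05, and 0.00822% of all probes passed. Without 1NP replicate 3 of 0.003 mM, the library of high detection, 2 members rose against medium. Over the 8 concentrations from low to high the members' median was -0.27, -0.09, -0.11, -0.16, -0.15, -0.12, -0.05 and 0.05 against DMSO, and 0.04, 0.24, 0.23, 0.20, 0.20, 0.22, 0.25 and 0.31 against medium. The trend over the 24 1NP libraries uses no control. It had 9 members rising and 0 falling, where 3.75% of all probes rose and 1.02% fell. The 9 were Sdhd, Ndufs5, Ndufa9 (0.10 log2 units a step), Ndufa5 (0.09), Ndufv2 (0.09), Atp5f1b (0.07), Atp5f1a (0.06), Ndufa2 (0.06) and Cox7b (0.05). Without 1NP replicate 3 of 0.003 mM, the library of high detection, 4 rose, and without replicate 3 of 10 mM 5 rose. Ndufa5 measured 34.4, 47.2 and 39.4 CPM at 0.003 mM and 72.3, 69.3 and 73.4 CPM at 10 mM.

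**Figure D4:**
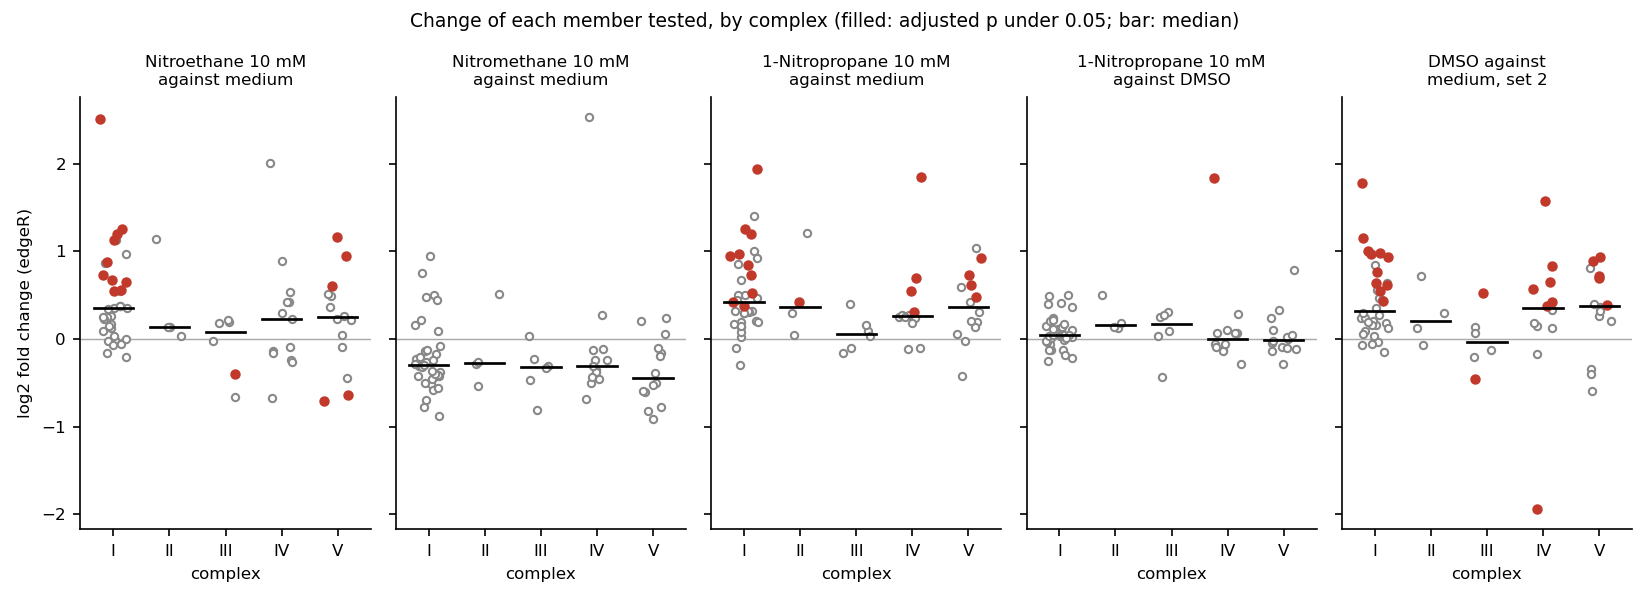
Log2 change (vertical axis) of each tested member by complex (horizontal axis) in NE 10 mM against medium, NM 10 mM against medium, 1NP 10 mM against medium and against DMSO, and DMSO against medium of set 2; each point is a probe, filled where it passed the test, and bars are medians. Filled points lie mainly above 0 for NE and for 1NP against medium, NM has 0, and DMSO against medium of set 2 has 25.

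The nitroalkanes differ by chain length, each having 1 carbon more than the one before from NM through NE to 1NP, and 3 pairs were compared at 10 mM. NE and NM lay in the same set, in different plate columns, and were compared directly. Of 71 members 19 were higher with NE and 0 lower, where 11.2% of all probes were higher and 13.3% lower. The median log2 difference of the members was 0.55. The 19 were 11 of complex I, 4 of complex IV and 4 of complex V. Atp5mc1 measured 23.9, 24.8 and 25.9 CPM with NE, against 11.2, 10.3 and 4.30 CPM with NM (log2 difference 1.56, 95% interval 0.93 to 2.19, adjusted p = 0.00283). Ndufb10 measured 192, 148 and 156 CPM with NE, against 74.3, 71.7 and 86.2 CPM with NM (1.16, interval 0.80 to 1.52, adjusted p = 0.000436). The libraries of the compounds did not overlap for either gene.

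Ndufb3 measured 154, 107 and 133 CPM with NE, against 68.4, 59.7 and 55.1 CPM with NM, and Ndufc1 measured 443, 399.9 and 457 CPM with NE, against 284, 278 and 251 CPM with NM. Ndufa1 (log2 difference 1.25), Ndufa10 (1.05), Ndufa12 (0.98), Ndufv2 (0.93), Ndufb5 (0.87), Ndufb11 (0.84), Ndufa6 (0.77) and Ndufa13 (0.61) were the other complex I members. Cox6c (0.79), Cox7b (0.66), Cox7a2l (0.55) and Cox4i1 (0.54) made up complex IV, and Atp5f1c (0.75), Atp5f1b (0.56) and Atp5po (0.46) joined Atp5mc1 in complex V. Cox4i1 measured 1275, 1007 and 1285 CPM with NE, against 897, 886 and 789.9 CPM with NM. All 19 were without overlap. The count was 9 without NE replicate 1 or 3 and 34 without NE replicate 2. Without the libraries of high detection it was 47, all higher with NE, where 19.7% of all probes were higher and 19.8% lower. With NE and NM alone in the fit the count was 6.

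**Figure D5:**
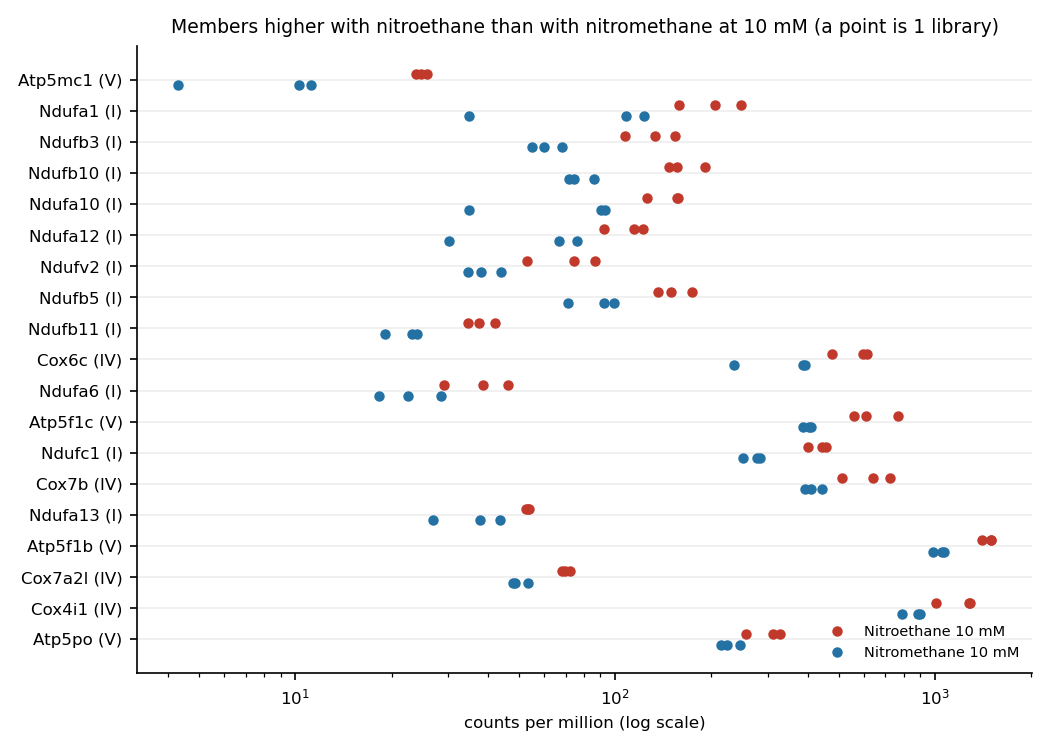
Level in CPM (horizontal axis, log scale) of the 19 members that differed between NE and NM at 10 mM, with the 3 NE libraries above the 3 NM libraries of each member; each point is a library. For every member shown, all NE libraries lie at higher levels than all NM libraries.

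Since 1NP was run in set 2, its change against its own medium was compared with that of NE or NM against theirs. Between NE and 1NP 0 of 71 members differed by edgeR or DESeq2, 2 had an unadjusted p under 0.05 (Atp5mf and Uqcrfs1), and 0% of all probes passed. The median log2 difference, NE minus 1NP, was -0.12. The intervals were wide: for Ndufb10 the difference was 0.32 (95% interval -0.48 to 1.12), and for Ndufv2 -0.07 (-0.78 to 0.64). For Atp5mc1, which measured 7.02, 9.4995 and 22.5 CPM at 10 mM 1NP, it was 0.97 (-0.05 to 1.99). Without 1NP replicate 3 there were 3 calls. Between 1NP and NM 0 of 71 members differed by edgeR or DESeq2, 11 had an unadjusted p under 0.05, and 0% of all probes passed. All 71 differences, 1NP minus NM, were positive, with a median of 0.63, but they all rest on the same 12 libraries, in which medium of set 2 was low. For Ndufb3 the difference was 1.24 (95% interval 0.55 to 1.94), and for Ndufa6 0.49 (-0.34 to 1.33).

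Few members passed the test against DMSO with the reference compounds. With BaP 4 of 71 members fell against DMSO and 0 rose, where 5.07% of all probes fell and 4.1% rose. The 4 were Uqcrc1 (84.7, 97.4 and 78.3 CPM, against 111, 106 and 109 CPM in DMSO), Ndufb9 (-0.36), Atp5mc3 (-0.32) and Cox7a2l2 (-0.29). Uqcrc1 did not overlap and fell by 0.38 ± 0.12 on the log2 scale (adjusted p = 0.0463), a call that was lost with the replicate block (adjusted p = 0.0568) and held in 4 of 12 settings. There were 0 calls without BaP replicate 1 or DMSO replicate 3, and 2 without BaP replicate 2 or DMSO replicate 1. Against medium 9 rose with BaP and 1 fell, where 9.3% of all probes rose and 10.4% fell. Of the 9 risers 8 were of complex I, among them Ndufb10 (0.64) and Ndufa12 (0.60). There were 6 calls left without BaP replicate 1. The 1 member that fell was Uqcrc1 (-0.46).

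With WY in set 1 3 members fell against DMSO and 0 rose, where 2.54% of all probes fell and 2.35% rose. The 3 were Ndufa1 (-0.44), Sdha (-0.32) and Cox7a2l2 (-0.27). There were 0 calls without WY replicate 2, the library of high detection, or without DMSO replicate 1 or 2, 1 without WY replicate 1, and 10 without WY replicate 3. In set 2 0 of 70 members passed against DMSO by edgeR or DESeq2, 1 had an unadjusted p under 0.05, and 0.901% of all probes passed. Against medium of set 2, however, 22 rose with WY and 1 fell, where 8.92% of all probes rose and 8.02% fell. DMSO against the same medium had given 23 and 2. The WY count was 14 without medium replicate 5, 37 without medium replicate 6, 12 without WY replicate 4 and 15 without WY replicate 5. Rifampin at 40 µM had 1 member lower than DMSO, Sdha at 192, 214 and 207 CPM, against 245, 250.2 and 241 CPM in DMSO (log2 change -0.35, adjusted p = 0.0406), where 1.14% of all probes fell. The call was lost without any 1 of the 3 DMSO libraries or without rifampin replicate 1 or 3, and 3 members passed without rifampin replicate 2. At 20 µM rifampin 0 members passed by edgeR and 2 by DESeq2, 9 had an unadjusted p under 0.05, and 2.87% of all probes passed. CITCO called 0 members by edgeR or DESeq2 at 10 and 20 µM, where 0.149% and 0.843% of all probes passed, and 3 and 6 members had an unadjusted p under 0.05.

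Genes that build and feed the complexes were counted from lists of pathway genes, to be read against the 17.2% of all probes that rose and the 18% that fell at 10 mM NE against medium. There, 5 of 13 tested assembly factors of complex I rose and 0 fell, among them Ndufaf2 (log2 change 1.34, 28.3 CPM against 11.1 CPM in medium) and, at 2.83 CPM, Foxred1 (1.77). For complex II assembly 2 of 4 rose, for complex III 1 of 3 fell (Uqcc3, -0.33), for complex IV 3 of 15 rose and 2 fell (Cox18 1.63 and Coa3 -1.03 being the largest), and for complex V 1 of 4 rose (Atpaf1, 0.86). Of the mobile carriers, ubiquinone synthesis and cytochrome c, 2 of 10 rose (Coq8a 1.71 and Coq7 0.36), and of the citrate cycle 4 of 12 rose and 1 fell (Dlst, a subunit of oxoglutarate dehydrogenase, rose by 1.20). Among regulators of mitochondrial biogenesis 4 of 14 rose, the largest being the coactivator genes Ppargc1a (3.74) and Ppargc1b (2.17), both under 3 CPM, and neither passed against DMSO (adjusted p = 0.101 and 0.108, edgeR). Of mitochondrial stress genes 5 of 13 rose and 3 fell, with the chaperonin gene Hspd1 at 197 CPM against 67.2 CPM in medium (1.54 ± 0.19) and Gdf15, a secreted stress signal, at 43.2 CPM against 118 CPM (-1.46 ± 0.15).

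When the libraries of high detection were left out, NE replicate 2 among them, 17.3% of all probes rose and 19% fell at 10 mM NE against medium. The complex I assembly factors then had 4 rising, the citrate cycle 6 rising and 0 falling, the biogenesis regulators 3 rising and the stress genes 5 rising and 2 falling. Ndufaf2 (1.31), Coq8a (1.64), Dlst (1.34), Hspd1 (1.55), Gdf15 (-1.41), Coa3 (-1.04), Atpaf1 (0.77) and Coq7 (0.47) passed again, and Ppargc1a did at 1.09 CPM. Foxred1, Cox18, Uqcc3 and Ppargc1b did not.

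The stress genes Ddit3, a transcription factor gene, and Trib3 differed by control. Ddit3 averaged 271 CPM at 10 mM NM, against 134 CPM in DMSO and 268 CPM in medium of set 1, and Trib3 averaged 56.7 CPM, against 33.5 CPM in DMSO and 65.4 CPM in medium. Both were higher at 10 mM NM than in DMSO (0.91 and 0.66), where 3 of 13 stress genes and 4.49% of all probes rose. Neither passed against medium, DMSO itself was lower than medium for both (-0.96 and -0.92), and Ddit3 fell with NM concentration (-0.07 log2 units a step, adjusted p = 0.0333, edgeR).

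For 10 mM 1NP against medium 7.92% of all probes rose and 5.35% fell. There 1 of 13 complex I assembly factors rose (Ndufaf6, 0.89), 3 of 12 citrate cycle genes rose (among them Sucla2, 0.88, and Mdh2, 0.71), and of 13 stress genes 1 rose (Hspd1, 0.86) and 3 fell. Gdf15, one of those that fell (-1.03), averaged 75.5 CPM at 10 mM 1NP, against 75.0 CPM in DMSO and 158 CPM in medium of set 2, and DMSO was lower than medium by a similar amount (-0.98). Sucla2, Mdh2 and Hspd1 were likewise higher in DMSO than in medium (0.65, 0.40 and 0.69), and none of these 5 named genes passed between 1NP and DMSO. Of the stress genes, Ddit3 (0.62, adjusted p = 0.0298, edgeR) and Hspa9 (0.45, adjusted p = 0.0174) were higher with 1NP than in DMSO. Of all probes 1.02% rose there. Ddit3 averaged 208 CPM with 1NP, against 133 CPM in DMSO and 269 CPM in medium of set 2. Between NE and NM at 10 mM 5 of 13 complex I assembly factors were higher with NE and 0 lower, where 11.2% of all probes were higher and 13.3% lower, including Ndufaf3 (1.29) and Tmem126b (1.25).

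Marker sums at 10 mM of the nitroalkanes were set beside the controls. The hepatocyte markers summed to 6485 to 8733 CPM at 10 mM NE, 9511 to 9972 CPM at 10 mM NM and 8225 to 8703 CPM at 10 mM 1NP. In set 1 they summed to 8636 to 10806 CPM in medium and 14603 to 15844 CPM in DMSO. In set 2 the sums were 8780 to 11902 CPM in medium and 13860 to 15392 CPM in DMSO. The cholangiocyte markers, of which 4 of 6 probes averaged over 1 CPM, summed to 222 to 287 CPM at 10 mM NE, against 627 to 737 CPM in medium and 545 to 624 CPM in DMSO of set 1. At 10 mM NM they summed to 829 to 1221 CPM, and at 10 mM 1NP to 250.4 to 759 CPM, against 613 to 744 CPM in DMSO and 851 to 1010.2 CPM in medium of set 2. No marker of either list was at 0 in every library. The part of these shifts in the members' changes was not tested.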

How the data were processed

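Per the labels' protocols, RNA of the wells was profiled with TempO-Seq using a panel named there as the human whole-transcriptome panel, although the gene symbols of the table are rat symbols. The deposited values are raw read counts per detector probe, made by the authors with no normalization, for 22253 probes in 105 libraries. The submitters' processing notes name FastQC, Bowtie, R 3.5.3 and DESeq2 1.28.1 without a role, and the genome build is not given in the sources used here. DMSO percentages differ between titles and protocol and are not used.

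Counts were tested with edgeR 4.0.16 (limma 3.58.1) under R 4.3.3. The filterByExpr step kept probes at a minimum count of 10 and a minimum total of 15, libraries were scaled by TMM, dispersions were estimated robustly, and each contrast had a quasi-likelihood F test with Benjamini-Hochberg adjustment over all probes of the fit; a probe was called at an adjusted p under 0.05. Each nitroalkane was fitted with its 8 concentrations, DMSO and medium (30 libraries), the reference compounds in fits of 24 and 9 libraries, trends over 24 libraries, and pairs of compounds over 12 libraries. The SE of a log2 change is its size divided by the square root of F, and 95% intervals use the normal quantile. CPM is the count scaled to a library total of 1000000. Counts of all replicate pairs differed by more than counting error (lowest chi-square per degree of freedom 2.88 over 105 pairs), so no library was a copy. The calling code was tested on simulated data.

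Members, pathway lists and marker lists were chosen with earlier results of these data known, so counts over them are descriptions. Named members passed the test, averaged at least 10 CPM, and had no overlap between groups, up to 15 in each direction; the best measured member of each complex, isoform genes and the inhibitor gene are given whatever their values, and other called members are named after their values were seen. Replicate numbers shared by groups were checked by the correlation of same-numbered deviations from group means: for BaP and DMSO it was 0.442, 0.194 and 0.591, and the fit with the replicate block called 3 members, against 4 without it, Uqcrc1 being lost. Alternatives were DESeq2 1.42.0, RLE scaling, no filter, only the compared groups, the replicate block, each library left out, and, chosen after seeing the data, leaving out the 8 libraries of high detection. A member count under an alternative that stands without the share of all probes shows only how the count moved. Promoter windows came from RefSeq (GRCr8), and the NRF1 string was shortened by a base after a longer form had been counted.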

Additional observations from a re-analysis of the deposited data

Results flagged for a closer look

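The rise of 4 members in DMSO over medium differed between the sets by a test of the difference itself (edgeR quasi-likelihood test, Benjamini-Hochberg adjustment over 11759 probes). As set 1 minus set 2 the log2 difference was -0.92 for Ndufb3 (SE 0.20, adjusted p = 0.0377), -0.83 for Ndufa1 (SE 0.19, adjusted p = 0.0409), -0.80 for Ndufb10 (SE 0.18, adjusted p = 0.0406) and -0.78 for Atp5pd (SE 0.16, adjusted p = 0.0372). In set 1 the log2 changes of these genes, in the same order, were 0.02, 0.16, 0.35 and -0.08, against 0.93, 0.98, 1.15 and 0.69 in set 2. Over all 71 members tested 16 differences were positive and the median was -0.23, against 0.02 for all probes. These calls were unstable: each of the 4 genes kept its call in 6 of 15 settings, and the count was 0 when any of 9 of the 12 libraries was left out. What lies behind the difference was not tested.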

How the results depend on the processing

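Counts of member calls were recomputed under each alternative, and no named member changed direction. With DESeq2 the count was 11 for NM 10 mM against DMSO, 2 for 1NP 10 mM against DMSO, 7 for WY of set 1, 2 for rifampin 40 µM, 17 for the NM trend and 11 for the difference between the sets. With only the compared groups it was 16 for NE 10 mM against DMSO, 18 for NE 3 mM, 0 for NM 10 mM against DMSO, 0 for 1NP 10 mM against medium and 0 against DMSO, 1 for BaP, 1 for WY of set 2, 0 for rifampin 40 µM and 6 for NE against NM. With no filter it was 5 for DMSO of set 1, 5 for rifampin 40 µM, 22 for the NE trend and 13 for the difference between the sets. Without the libraries of high detection it was 32 and 25 for NE 10 mM against medium and DMSO, 17 for NE 3 mM, 1 and 14 for NM 10 mM against medium and DMSO, 0 for WY of set 1, 29 for the NE trend, 4 for the 1NP trend and 47 for NE against NM.

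Leaving out each library in turn gave 7 to 21 calls for NE 10 mM against medium, 4 to 14 against DMSO, 4 to 6 for NE 3 mM, 3 to 8 for NM 10 mM against DMSO, 3 to 26 for 1NP 10 mM against medium, 0 to 1 against DMSO, 1 to 4 and 17 to 37 for DMSO of sets 1 and 2, 0 to 6 for BaP, 0 to 10 for WY of set 1, 0 to 3 for rifampin 40 µM, 7 to 19, 3 to 16 and 4 to 11 for the NE, NM and 1NP trends, 9 to 34 for NE against NM, 0 to 3 for NE against 1NP and 0 to 24 for the difference between the sets. The counts of 0 for NM 10 mM against medium, WY of set 2, CITCO 20 µM and 1NP against NM stayed at 0 with every library left out.

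Replicate numbers followed the order of plate columns within a group, and several groups of set 1 shared the same columns. Same-numbered deviations correlated at up to 0.591, for BaP and DMSO, and down to -0.519, for NE and NM at 10 mM. The replicate block gave 6 calls for WY of set 1 in place of 3. With and without the replicate block the 1NP trend had 9 calls. No paired analysis was possible for 1NP against its controls, because its numbers are not theirs, nor for the differences between sets. Of 114 named calls, 114 were kept with DESeq2 and with RLE scaling, 106 with no filter, 91 of 95 with the replicate block, 55 of 88 with only the compared groups and 81 of 94 without the libraries of high detection. The cause of these shifts was not tested. Why 9 members passed no filter was not tested.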
